A study of Mus musculus with 6 samples.

Results

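The interferon-inducible p200 genes, also called PYHIN genes, form a cluster on mouse chromosome 1. Of the 41388 genes listed in the deposited table, 9 names were taken as members by symbol: Ifi203, Ifi204, Ifi206, Ifi207, Ifi208, Ifi209, Mndal, Aim2 and Pyhin1. RefSeq gives Pyhin1 as another name of Ifi209, so the 9 names were 8 genes. A further 6 PYHIN genes of the cluster (Ifi202b, Ifi205, Ifi211, Ifi213, Ifi214 and the pseudogene Ifi203-ps) are described beside them.

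Most PYHIN proteins join an N-terminal pyrin domain, which binds other pyrin domains, to a C-terminal HIN domain, which binds double-stranded DNA. AIM2 detects DNA in the cytosol and recruits the adaptor ASC (encoded by Pycard) and caspase-1 into an inflammasome, the complex that matures IL-1β and IL-18 and cleaves gasdermin D. Other p200 proteins, such as IFI203 and MNDAL, lie largely in the nucleus and have been tied to transcription and growth control, and IFI204 has been described as a DNA sensor that signals through STING. Many genes of the family are induced by interferons, through promoter elements bound by interferon regulatory factors (IRFs) and STAT proteins. IRF1 is one such factor and is itself induced by IFN-γ.

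RNA-Seq compared 3 WT with 3 Irf1-/- Th9 cultures, to learn which transcripts of IFN-γ-treated Th9 cells depend on IRF1. Both groups started from naive CD4+ T cells of spleen and lymph nodes of C57BL/6 mice aged 8 to 12 weeks. All 6 cultures were kept for 2 days with antibodies to CD3 and CD28, IL-2, IL-4, TGF-β, an antibody to mouse IFN-γ and rat IFN-γ at 5 ng per ml. There was no culture without IFN-γ, so the values compare genotypes and do not measure induction, and the deletion was carried by the whole mouse rather than by T cells alone. The unit is the normalized count, in which a size factor evens out the depths of the libraries, and the study describes the 3 samples of a group as independent.

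The libraries held between 5639788 and 13348230 reads on genes, with replicate 3 the largest in each group, and 3 reads were worth a normalized count of 1.84 to 4.16. Irf1 itself lay between 2660 and 2968 in WT and between 1476 and 1780 in Irf1-/- cells, so that reads on the targeted gene were fewer but not absent. Of the markers of the labelled cells, Cd4 stood at 3554 to 4030 in every library, against 2.39 to 4.99 for Cd8a and 17.9 to 38.1 for Cd8b1. Y-linked transcripts stood high in WT replicates 1 and 2 (a sum over 4 genes of 2301 and 2306) and at 11.1 or less in the other 4 libraries, so that genotype and the sex of the donor mice cannot be fully told apart. Of the 10 myeloid markers, Fcgr1 had 2 reads in 1 library and 0 in the others. Their sum ran from 603 to 796 in WT and from 261 to 1324 in Irf1-/- libraries. Irf1-/- replicate 2 stood apart, with Lyz2 at 559 and Cd14 at 334, both picked after their values were seen. Ctss, which makes up most of the sum in WT libraries, and Mpeg1 went the other way and were lower in Irf1-/- cells (log2 fold changes -1.05 and -1.16, limma adjusted p = 4.70e-05 and 0.0367), also in replicate 2, at 275 and 56.9. Of the NK markers 3 of 4 were at 0 in every library, as was the B cell factor Pax5. Of the 3 plasmacytoid dendritic cell markers, Siglech had 1 read in all, and Bst2 and Tcf4, which T cells can also express, were lower in Irf1-/- cells (log2 fold changes -0.40 and -0.66, limma adjusted p = 0.0028 and 0.0213), the direction of Ifi203 and Mndal. The part of such cells in the results was not tested.

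RefSeq (GRCm38.p6) gave a promoter window, 250 bases before to 50 bases after a start site, for 7 of the 8 members. Each was searched on both strands for AANNGAAA, the core of the interferon-stimulated response element (ISRE), for GAAANNGAA, a stricter IRF element that can overlap the core by up to 7 bases, and for TTCNNNGAA, the gamma-activated sequence (GAS). The core was in the windows of 6 members and in 23.9% of 32851 windows of all genes. The IRF element was in the windows of 5 members (Ifi203, Mndal, Ifi206, Ifi207 and Ifi208) and in 8.56% of all windows. The GAS letters, found in 8.30% of all windows, were in those of 0 members. Aim2 held none of these motifs. The counts were the same when only the 250 upstream bases were searched. The stretches that hold the match are printed 5′ to 3′ on the strand of the gene, to show how alike this element is among the members and the other PYHIN genes Ifi211, Ifi213 and Ifi214, with the IRF element and the overlapping core in capitals.

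Ifi203 (chr1:173942508-173942537, - strand): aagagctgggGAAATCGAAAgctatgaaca
Mndal (chr1:173880204-173880233, - strand): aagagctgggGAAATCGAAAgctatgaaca
Ifi206 (chr1:173491339-173491368, - strand): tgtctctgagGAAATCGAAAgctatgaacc
Ifi208 (chr1:173673597-173673626, + strand): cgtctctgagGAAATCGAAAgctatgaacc
Ifi207 (chr1:173741831-173741860, - strand): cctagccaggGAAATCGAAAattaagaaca
Ifi211 (chr1:173913064-173913093, - strand): caaagccaggGAAATTGAAAgctatgaacg
Ifi213 (chr1:173599326-173599355, - strand): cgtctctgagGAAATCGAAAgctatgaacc
Ifi214 (chr1:173536017-173536046, - strand): agtctctgagGAAATCGAAAgcgatgcact
Ifi209 (chr1:173630772-173630801, + strand): tctctgagtaAATCGAAAgagatgcactct

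In Ifi209 the capitals mark the core alone. Ifi205 also held both the core and the IRF element, and Ifi202b held neither. The element was thus found in genes with many and with few reads. The stretches of Ifi203 and Mndal were identical over all their bases. The match began 35 bases before the second of the annotated starts of Ifi203 and 36 before the first of Mndal, against 40, 41 and 58 bases in Ifi206, Ifi207 and Ifi208 and 77 bases in Ifi209. Over the whole 250 upstream bases, Ifi203 and Mndal were identical at 233 of 239 aligned positions (97.5%), whereas each shared 59.7% and 55.2% of aligned positions with Aim2. The stretch of Mndal also lies in an exon of another annotated Mndal transcript. The window of Aim2 follows a RefSeq start that lies inside the longer GENCODE span of the gene. A match of letters is a description and no measure of binding.

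The members differed in direction. Ifi203 and Mndal were lower in Irf1-/- Th9 cells, at 27.2% and 25.7% of their WT means, Aim2 was higher, and the other 5 members had too few reads to be tested. The test was run by limma on log2 of the normalized count plus 1, over the 11379 genes whose mean reached 10, with Benjamini-Hochberg adjustment over these genes. Of all genes tested, 12.4% were lower and 11.4% higher in Irf1-/- cells at an adjusted p below 0.05. Among the 3 members with enough reads, 2 were lower and 1 higher. Their median log2 fold change, which is that of Ifi203, was -1.91, beside -0.0037 over all genes tested, and with so few genes it describes these members only. With no filter on low genes the median over all 8 members was -0.35.

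Aim2 (ENSMUSG00000037860, chromosome 1 of GRCm38 from 173350879 to 173466040, + strand) encodes the cytosolic DNA sensor. Its normalized counts were 289.5, 302 and 319.6 in WT replicates 1 to 3, and 473, 448 and 475 in Irf1-/- replicates 1 to 3. Every Irf1-/- library thus stood above every WT library. The mean rose from 304 ± 15.1 to 465 ± 15.2 (SD, n = 3 each), which is 1.53 times the WT mean. The log2 fold change was 0.62 (standard error 0.0745, 95% confidence interval 0.45 to 0.78, limma adjusted p = 3.06e-04). With WT replicate 3, which lacks Y-linked transcripts, as the only WT library, it was 0.54 (limma adjusted p = 0.0217, with that library assumed to vary like the others).

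Ifi203 (ENSMUSG00000039997, chromosome 1 from 173920407 to 173942672, - strand) encodes a nuclear p200 protein. In the WT libraries its normalized counts were 163, 177 and 179. In the Irf1-/- libraries it had 32.2, 62.4 and 46.7. All 3 were under every WT value, but they were spread more widely than in WT. The mean fell from 173 ± 8.55 to 47.1 ± 15.1 (SD, n = 3 each), or 27.2% of the WT mean, with a log2 fold change of -1.91 (standard error 0.206, 95% confidence interval -2.36 to -1.45, limma adjusted p = 1.50e-04). The highest of the Irf1-/- values was in replicate 2, the library with the highest sum of myeloid markers, and the part of those cells in it was not tested. Without that library the log2 fold change of Ifi203 was -2.13, and without Irf1-/- replicate 1 it was -1.66. The 27, 45 and 73 reads behind the Irf1-/- values gave exact Poisson intervals (95%, counting error only) of 21.2 to 46.9, 45.5 to 83.5 and 36.6 to 58.7 normalized counts.

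Mndal (ENSMUSG00000090272, chromosome 1 from 173849126 to 173942491, - strand) encodes a nuclear relative of the human protein MNDA. Its normalized counts were 145, 148 and 154 in WT and 44.2, 36.1 and 34.5 in Irf1-/- libraries. The groups were far apart, and here Irf1-/- replicate 2 held the middle of the Irf1-/- values. The mean fell from 149 ± 4.52 to 38.2 ± 5.19 (SD, n = 3 each), or 25.7% of the WT mean. The log2 fold change of -1.94 (standard error 0.146, 95% confidence interval -2.26 to -1.62, limma adjusted p = 1.50e-05) lay within the standard errors of that of Ifi203, and which of them was larger in size changed between alternatives. None of the 3 genes overlapped between the groups, as was so for 40.5% of all genes tested.

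**Figure D1:**
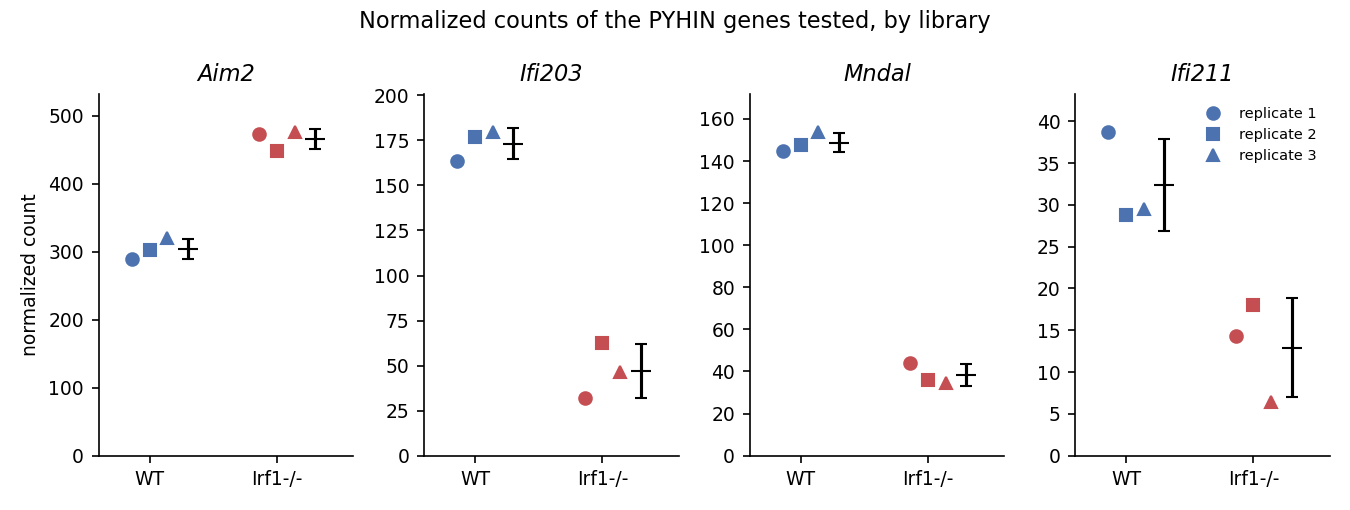
Normalized counts (linear axes from 0, a separate scale for each gene) of Aim2, Ifi203, Mndal and Ifi211 in the 3 WT and 3 Irf1-/- libraries, with the mean and SD (n = 3) in black. Aim2 lies higher in every Irf1-/- library (448 to 475) than in any WT library (289.5 to 319.6), and the other 3 genes lie lower in every Irf1-/- library.

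Values within parts of the design were close to those over all libraries. In replicates 1 and 2 alone, the log2 fold changes of Aim2, Ifi203 and Mndal were 0.64, -1.90 and -1.85. The difference between the pair of larger libraries, replicate 3 of each group, was 0.57, -1.92 and -2.12, a comparison added after seeing the data and with no test. With WT replicate 3 as the only WT library, Ifi203 and Mndal stood at -1.96 and -1.99. The 3 calls were kept in every alternative that carried a test.

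Because reads of these genes can match more than 1 member, the share of 50-base stretches of their annotated transcripts that occur in no other gene was counted. The labels give reads of 59 bases and the methods reads of 50, so the length is in doubt, and the shorter one was used. It was 99.3% for Aim2, 87.6% for Ifi203 and 80.4% for Mndal. Ifi203 and Mndal had 230 such stretches in common, or 3.34% of those of Ifi203 and 6.19% of those of Mndal. Ifi203 had more in common with the pseudogene Ifi203-ps (610, or 8.85% of its stretches). Mndal had more in common with Ifi211 (296, or 7.96% of its stretches, with an identical coding run of 182 bases) and with Ifi205 (262, or 7.05%), which have fewer reads. The longest identical run of the Ifi203 and Mndal coding sequences, 76 bases at coding positions 176 to 251 of Ifi203-201 and 173 to 248 of Mndal-202, is shown because reads from it cannot be told apart.

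Ifi203 and Mndal, shared run: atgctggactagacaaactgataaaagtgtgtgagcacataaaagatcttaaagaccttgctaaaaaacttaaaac

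The handling of reads with several matches was not given in the sources used here, so the split of reads between these paralogs is uncertain. The annotated span of Mndal reaches across Ifi211 to the start of Ifi203, where 37 exon bases belong to both. Aim2 shared no exon base with Cadm3, the gene that overlaps it on the other strand.

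Within each library, the ratio of Ifi203 to Mndal was 1.13 to 1.20 in WT and 0.73, 1.73 and 1.35 in Irf1-/- replicates 1 to 3. It was more widely spread in Irf1-/- cells (SD 0.505 against 0.0331, n = 3 each), and the groups overlapped (exact two-sided permutation test, p = 1.0), which does not show that the ratio was kept. The ratio of Aim2 to Mndal was 2.00 to 2.08 in WT and 10.7 to 13.8 in Irf1-/- cells, and that of Aim2 to Ifi203 was 1.71 to 1.78 and 7.18 to 14.7. Neither ratio overlapped between the groups (exact two-sided permutation test, p = 0.1 for each, the smallest value that 3 against 3 libraries allow).

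The summed normalized count of the 8 genes was 610.3, 635 and 671 in WT and 555, 559 and 566 in Irf1-/- libraries. Aim2 made up 47.4%, 47.5% and 47.6% of it in the WT libraries, an almost constant share, and 85.2%, 80.1% and 84.0% in the Irf1-/- libraries. Ifi203 went from 27.1% ± 0.622 to 8.40% ± 2.68 and Mndal from 23.3% ± 0.414 to 6.83% ± 0.988 (SD, n = 3 each). None of these 3 shares overlapped between the genotypes (exact two-sided permutation test over libraries, p = 0.1 for each, the smallest possible). The shares are parts of the same sum, so a fall of some raises others, and they are not separate results.

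**Figure D2:**
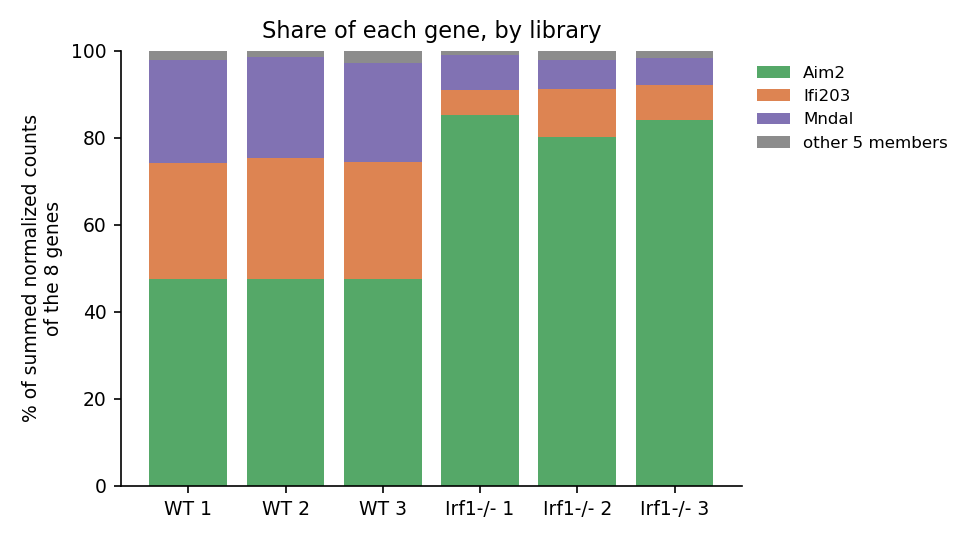
Share of each gene (%, from 0 to 100) in the summed normalized counts of the 8 members, 1 bar for each library. Aim2 holds 47.4% to 47.6% in the 3 WT libraries and 80.1% to 85.2% in the 3 Irf1-/- libraries.

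Levels of different genes were compared per kb of all annotated exons, a rough scale because the transcripts in use are not known. Aim2 had the highest level in both genotypes, at 86.7 ± 4.33 in WT and 133 ± 4.34 in Irf1-/- cells (normalized count per kb, SD, n = 3). Mndal followed at 41.0 ± 1.25 and 10.5 ± 1.43 and Ifi203 at 25.8 ± 1.28 and 7.02 ± 2.25. In WT cells this order was the same in every library, with gaps well beyond the spread. Before division by length, Ifi203 (mean 173) stood above Mndal (149) in WT. The order of Mndal and Ifi203 thus rests on the lengths used, 3628 and 6706 exon bases. In Irf1-/- cells the lowest Mndal value, 9.51, lay next to the highest Ifi203 value, 9.31. Ifi206 (1.42 ± 0.893), Ifi208 (1.17 ± 0.407) and Ifi209 (0.748 ± 0.435) came next in WT and did not differ beyond their spread. Aim2 had a level per kb above that of 57.9% of tested genes in WT and 69.7% in Irf1-/- cells, whereas Mndal moved from above 38.7% to above 14.2% and Ifi203 from above 28.7% to above 9.49%.

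Of the 5 members below the threshold, Ifi208 (also named Pydc3, which encodes a pyrin domain protein) had the most reads. It had 4, 4 and 14 reads in WT and 2, 1 and 5 in Irf1-/- replicates 1 to 3, or 6.14 ± 2.14 and 2.32 ± 0.906 normalized counts (SD, n = 3). Its groups did not overlap, but with no filter on low genes the log2 fold change of -1.10 did not pass (limma adjusted p = 0.204). The exact Poisson intervals, 1.36 to 12.8 in WT replicate 1 and 1.04 to 7.46 in Irf1-/- replicate 3, show how little this depth can tell.

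Ifi206 had 5, 1 and 9 reads in WT and 2, 3 and 5 in Irf1-/- cells, and its values overlapped (-0.17, limma adjusted p = 0.874 with no filter). Ifi209 had 1, 2 and 7 reads in WT and 0, 2 and 4 in Irf1-/- cells, which overlapped as well (-0.53, limma adjusted p = 0.634 with no filter). Of their 50-base transcript stretches 74.4% and 66.3% were found in no other gene, and 1182 stretches of Ifi209 were shared with Ifi214. Neither gene gave a difference that could be detected at this depth.

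Ifi207 and Ifi204 had 0 reads in all WT libraries, taken as allowing up to 3 reads in each. Ifi207 had 1 read in each Irf1-/- library and Ifi204 had 2 reads, both in Irf1-/- replicate 2. These values lie under the limit that a count of 0 allows, so neither gene was detected above that limit in either group. Irf1-/- replicate 2 was also the library with the highest sum of myeloid markers, and Ifi204 is best known from cells of that lineage. Where its 2 reads came from was not tested.

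**Figure D3:**
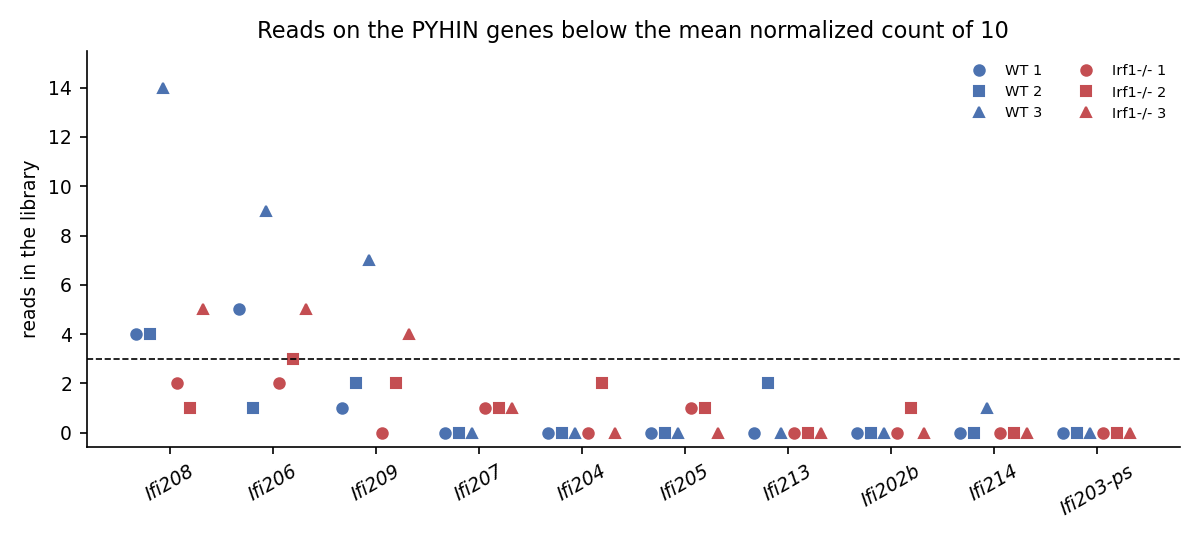
Reads in each library (whole reads, linear axis) on the 5 members and 5 other PYHIN genes with a mean normalized count under 10, with blue for WT, red for Irf1-/- and a dashed line at 3 reads. Ifi208, Ifi206 and Ifi209 rise above the line in some libraries, with the most reads in WT replicate 3, the largest library, and the remaining genes have at most 2 reads in any library.

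Among the other 6 PYHIN genes, Ifi211, the mouse gene also named Mnda, had enough reads for a test. Its normalized counts were 38.7, 28.9 and 29.5 in WT and 14.3, 18.0 and 6.39 in Irf1-/- libraries, which did not overlap. The log2 fold change was -1.36 (standard error 0.356, limma adjusted p = 0.0195), and it missed the threshold in 5 of 18 alternatives. Without WT replicate 1 the value was -1.22 (limma adjusted p = 0.0820), and without WT replicate 2 it was -1.43 (limma adjusted p = 0.0533). With the Y-linked covariate it was -1.16 (limma adjusted p = 0.107), and with WT replicate 3 as the only WT library it was -1.24. Of its 50-base transcript stretches 27.2% occurred in no other gene, with 774 shared with Ifi205, 521 with Ifi204 and 296 with Mndal, so its reads are uncertain. Ifi205, Ifi202b, Ifi213 and Ifi214 had at most 2 reads in any library, and Ifi203-ps had 0.

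The 14 PYHIN genes span 681 kb. Ifi203, Mndal and Ifi211, the genes that were lower, lie next to each other at 498 to 570 kb from the lower end of Aim2, and the genes between them and Aim2 had few reads. Within 1 Mb on either side, 46 other genes are annotated, of which 34 had 0 reads in every library and 3 were tested. These were Pigm (log2 fold change -0.05, limma adjusted p = 0.582), Igsf9 (-0.54, adjusted p = 0.229) and Tagln2 (0.06, adjusted p = 0.530). The values of each overlapped between the genotypes. Dusp23, which was not tested and is named after its values were seen, had a mean of 9.10, at 3.74, 6.01 and 3.07 in WT and 10.7, 20.8 and 10.2 in Irf1-/- libraries, which did not overlap.

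**Figure D4:**
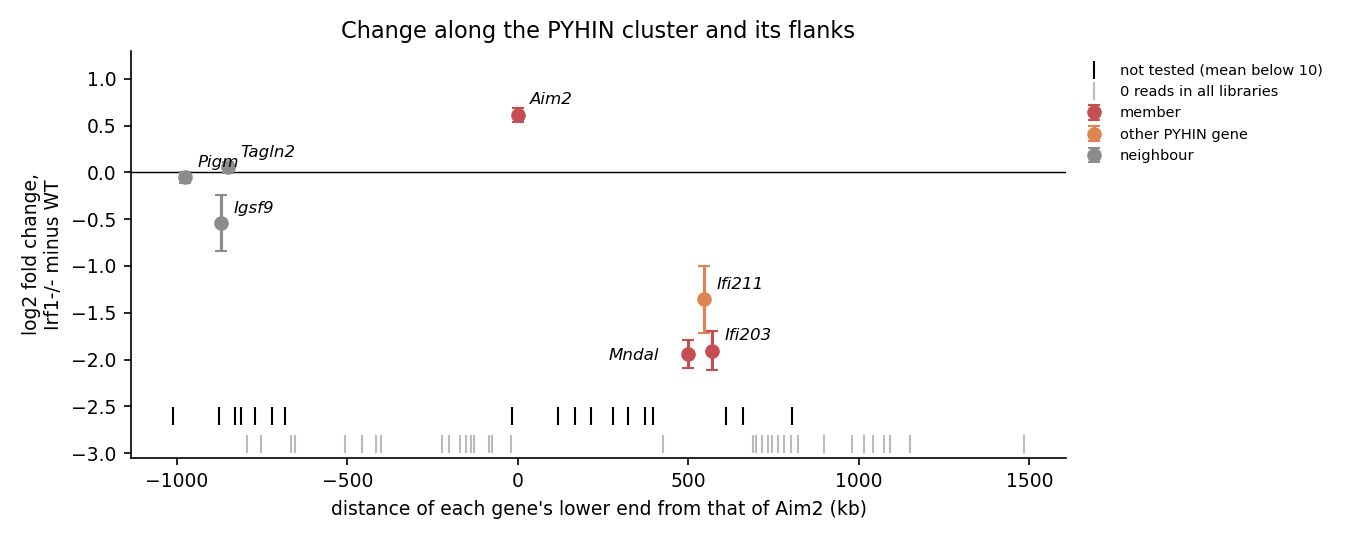
Log2 fold change with its standard error (Irf1-/- minus WT) of each tested gene against its distance in kb from the lower end of Aim2, with ticks for genes that were not tested or had 0 reads. Aim2 lies at 0.62, the adjacent Mndal, Ifi211 and Ifi203 lie between -1.94 and -1.36, and Pigm, Igsf9 and Tagln2 lie at -974 to -851 kb, below Aim2.

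The genes for the partners of AIM2 in the inflammasome differed in their values. Pycard, which encodes ASC, had 290.8 to 313 normalized counts in WT and 299.6 to 333 in Irf1-/- cells (log2 fold change 0.05, limma adjusted p = 0.696). Casp1, which encodes caspase-1, had 16.2, 10.8 and 14.8 in WT and 0, 2.77 and 1.28 in Irf1-/- libraries. Its mean was under the threshold for the test, and with no filter on low genes the difference of -2.85 on the log2 scale had a limma adjusted p of 0.0027. Gsdmd, which encodes gasdermin D, fell from 44.6 ± 6.26 to 12.7 ± 4.68 (SD, n = 3 each, log2 fold change -1.78, limma adjusted p = 0.00158).

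Of 19 inflammasome genes listed, 8 were tested, and 2 were lower and 1 higher, with a median log2 fold change of 0.20. Over all genes tested, 12.4% were lower and 11.4% higher, so counts this small say little about the list. Named after their values were seen, Nek7, a cofactor of NLRP3, was the other lower gene (-0.37) and Txnip, which encodes a thioredoxin-binding protein, was the higher one (0.84). Casp4, which encodes the mouse caspase-11 and was also picked after seeing its values, went from 13.9 ± 1.42 to 2.15 ± 0.776 (SD, n = 3 each, limma adjusted p = 0.00391 with no filter). Il1b, also picked after seeing its values, did not pass (limma adjusted p = 0.142). It stood at 251 in Irf1-/- replicate 2, the library with the highest sum of myeloid markers, and at 4.92 to 12.1 elsewhere.

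Cytosolic DNA sensing beside AIM2 runs through cGAS and STING. Cgas had normalized counts of 152, 202 and 132 in WT and 105, 114 and 81.8 in Irf1-/- libraries (log2 fold change -0.68, limma adjusted p = 0.0180). The gene for STING (listed as Tmem173) fell from 1898 ± 88.9 to 1439 ± 156 (SD, n = 3 each, -0.40, limma adjusted p = 0.00452). With WT replicate 3 as the only WT library the values were -0.40 for Cgas and -0.33 for Tmem173 (limma adjusted p = 0.319 and 0.127). Cgas also missed the threshold without WT replicate 2 (-0.51, limma adjusted p = 0.0779), with the Y-linked covariate (-0.41, adjusted p = 0.176) and with no trend (adjusted p = 0.0666). Of 22 genes in this list 20 were tested, 7 of them lower and 3 higher, with a median of -0.08. The shares over all genes tested were 12.4% lower and 11.4% higher. Zbp1, a sensor of Z-form nucleic acid, fell from 97.2 ± 20.3 to 42.1 ± 15.3 (-1.23, limma adjusted p = 0.00619), and Trim30a fell from 316 ± 28.0 to 132 ± 17.8 (-1.26, limma adjusted p = 5.45e-05). Irf7 was higher, at 17.0 ± 2.77 against 7.36 ± 0.138 (1.09, limma adjusted p = 0.0297), but lost the call in 11 of 18 alternatives, without any 1 of the WT libraries or Irf1-/- replicates 1 or 3 among them.

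Upstream of the cluster, 18 genes of interferon receptor signalling were tested, of which 5 were lower and 1 higher, with a median log2 fold change of 0.03. Beside this, 12.4% of all genes tested were lower and 11.4% higher. Irf9, which encodes a subunit of a complex that binds the ISRE, was at 440 to 512 in WT and 489.5 to 522 in Irf1-/- cells (0.06, limma adjusted p = 0.632). Usp18, a negative regulator of type I interferon signalling, fell from 68.2 ± 1.87 to 19.4 ± 4.41 (SD, n = 3 each, -1.79, limma adjusted p = 3.01e-04). Socs3, an inhibitor of cytokine receptors, was higher at 462 ± 81.6 against 189 ± 15.4 (1.28, limma adjusted p = 7.21e-05).

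**Figure D5:**
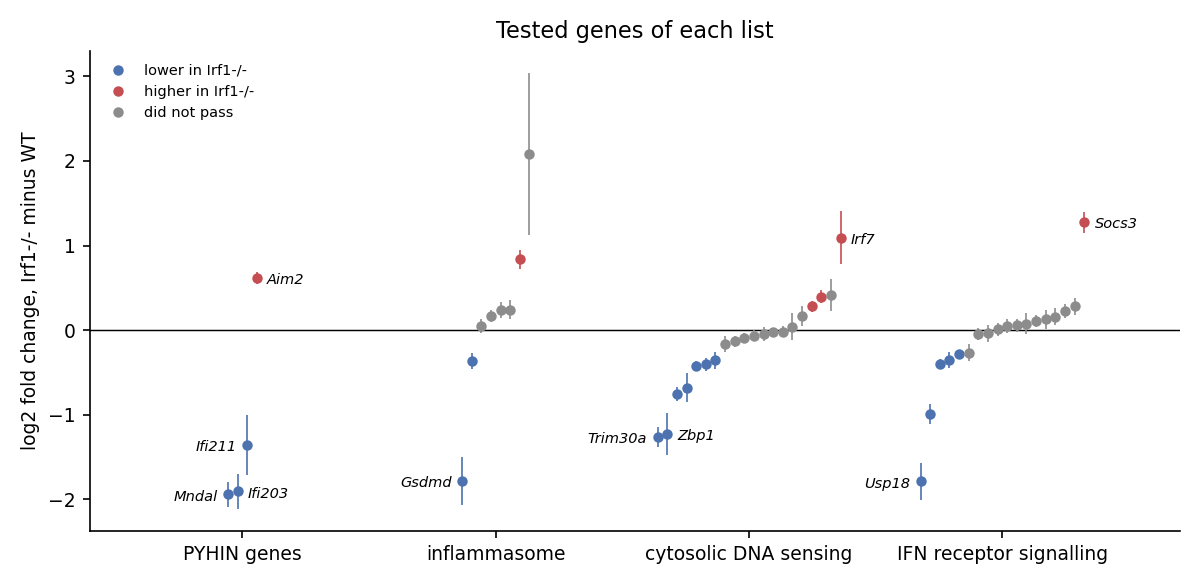
Log2 fold change with its standard error (Irf1-/- minus WT) of each tested gene of the PYHIN family and of the inflammasome, cytosolic DNA sensing and interferon receptor signalling lists, in blue where lower, red where higher and grey where the test was not passed. Mndal (-1.94), Ifi203 (-1.91), Usp18 (-1.79) and Gsdmd (-1.78) are at the lower end, and the highest grey point is Il1b (2.09), whose standard error is 0.957.

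The genes whose log2 values followed those of 2 members most closely were sought by Euclidean distance over the 6 libraries, after centring each gene on its mean. For Aim2, the member with the highest mean, they were Mvd (distance 0.0909), Tnk2 (0.101) and Osbpl2 (0.111). For Mndal, whose change was larger in size than that of Ifi203 by less than their standard errors, they were Erap1 (0.228), Tspan2 (0.373) and Car2 (0.390). Erap1 encodes a peptide-trimming enzyme of the endoplasmic reticulum. It went from 1532 to 400.4 normalized counts (means, n = 3 each), a log2 fold change of -1.94. The search picks genes with values like those of Mndal, so a similar change follows from the choice.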

How the data were processed

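The deposited signal was the normalized count: per the labels and methods, the authors aligned single-end reads of poly(A) RNA to GRCm38 with STAR 2.4.0b, assigned them to Ensembl genes with featureCounts, and divided counts by DESeq2 (1.12.3) size factors. Whole reads were recovered for 100% of values (tolerance 0.01). The kit does not mark strand. Symbols, coordinates and exon lengths came from GENCODE vM21 by Ensembl identifier (40254 of 41388 genes).

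Genotypes were compared with limma 3.58.1 (trend, R 4.3.3) on log2 of the normalized count plus 1, for genes with a mean of at least 10 over the 6 libraries. Alternatives were edgeR 4.0.16 and DESeq2 1.42.0 on recovered reads, other pseudocounts, filters and scalings, no trend, replicate number as a block, a Y-linked covariate, and libraries left out. The methods were tested on simulated data. Genes that are no members are named by a rule. They passed the test with a log2 fold change above 1 in size, or are partners of a member. Others are partners of the interferon response (Irf9 among them), tested neighbours of the cluster, or were nearest to Aim2 or Mndal. Cell type markers are named apart from this rule. Genes outside it that were picked after their values were seen are marked. A further partner is not reported here. All p-values measure spread between the 3 cultures of a group. The members and lists were chosen with earlier results of these data known.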

Additional observations from a re-analysis of the deposited data

How the results depend on the processing

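Aim2, Ifi203 and Mndal were called in the reported direction in all 19 alternatives with a test. Over 20 alternatives their log2 fold changes ranged from 0.54 to 0.65, from -2.13 to -1.66 and from -2.12 to -1.72. The smallest size for Mndal came with a pseudocount of 10. The other filters, the fit with no trend and the replicate block leave these values unchanged by construction. The median over the members was -0.35 with no filter, where it covered all 8 genes, -1.72 with a pseudocount of 10, and between -1.95 and -1.66 with 1 library left out. The number of lower and higher members was 2 and 1 in each case, and the 3 shares moved by less than their spread.

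The labels give no shared day or litter, and the replicate numbers were not taken as pairs: deviations from the group means correlated at 0.0922, 0.269 and 0.321 between same-numbered libraries, the first under the limit of 0.1 set for a pair. Differently numbered libraries lay between -0.306 and 0.0838, so each library correlated best with its own number, a hint from the data and not from the design. A replicate block cannot move the log2 fold changes (0.62, -1.91 and -1.94) in this balanced design, so their equality says nothing about pairing. With the block the calls of the members did not change, while calls over all genes went from 1406 lower and 1293 higher to 2116 and 1893. They were 807 and 928 with no trend, 1099 and 856 with the Y-linked covariate, 2085 and 1810 in replicates 1 and 2 only, 392 and 392 with WT replicate 3 alone against Irf1-/-, and 826 to 1472 and 799 to 1372 with 1 library left out. The cause of these shifts was not tested. For 5 members the reads were too few for a test, and whether they differ between genotypes cannot be told at this depth. In the same WT libraries their means were at most 1.42 normalized counts per kb, against 25.8 for Ifi203. The part of reads with several matches in these low values was not tested.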
